A study of Mus musculus with 2 samples.

Results

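Plagl1 and 9 other imprinted growth genes were examined for Arid1b binding: Zdbf2, Gnas, Igf2r, Nnat, Igf2, H19, Impact, Dlk1 and Grb10. A peak was assigned to a gene when any base of it lay in the annotated gene or within 10 kb of it, in NCBI's RefSeq gene table for GRCm38.p6 (mm10). All 10 genes were found among the 49960 genes of that table outside the mitochondrial genome, and 18 of the 8318 listed peaks were assigned to them. Per its title, the series is about Arid1a, Plagl1 and Hedgehog (Hh) signals in tooth root progenitors. Arid1b, the paralogue of Arid1a and like it a DNA-binding subunit of BAF, a SWI/SNF chromatin remodelling complex, was mapped by ChIP-seq, in which antibody-bound chromatin is sequenced. Of the 2 libraries, 1 was Arid1b ChIP and 1 was input, for which no antibody was used. Both were made from cultured primary dental mesenchyme of wild-type mice of strain C57BL/6, taken from the apical end of the first lower molars between postnatal days 3.5 and 7.5 and kept in 10% serum.

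Each group had 1 library, so nothing could be checked against replicates or tested, and each value describes these libraries only. The series' design text names Gli1-CreER;Arid1a fl/fl mice, whereas the labels of both libraries name wild-type cells, and the labels do not say how many animals or cultures were pooled. The peak list gives no parental origin of the signal, so which parental copy of an imprinted gene carried a peak cannot be told apart. As a check of the cell type, peaks lay in or within 10 kb of 8 of 10 dental mesenchyme genes, Lhx6 and Gli1 being the exceptions, against 1 of 6 dental epithelium, 0 of 5 endothelium, 1 of 6 blood and immune, and 0 of 5 neuron and glia genes. Among the 8, Dlx1 and Dlx2 are neighbours with the same strongest peak, so they are not separate counts. Over all protein-coding genes the share with a peak was 31.7%, so lists this short say little about the types with few or no peaks. A peak is not a measure of expression, so this does not show which of these genes the cells expressed.

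Imprinted genes are expressed mainly or only from the copy inherited from a given parent, which is set by DNA methylation of control regions laid down in the germ line. Many of them act on growth: Igf2 encodes a paternally expressed fetal growth factor, whereas the maternally expressed Igf2r encodes a receptor that clears it. Plagl1, also called Zac1, encodes a paternally expressed zinc-finger transcription factor that can arrest the cell cycle and is known in mice as a regulator of other imprinted genes.

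Plagl1 itself carried no Arid1b peak, and Zdbf2 and Gnas carried the most. Of the 10 genes, 6 had a peak in or within 10 kb and 4 had none. The 6 were Zdbf2 with 6 peaks, Gnas with 5, Igf2r, Nnat and Igf2 with 2 each, and Impact with 1. The 4 without a peak were Plagl1, H19, Dlk1 and Grb10. Over all protein-coding genes 31.7% had such a peak, and over all long noncoding RNA (lncRNA) genes, the class of H19, 14.2% had one. With windows of 1, 5, 20 and 50 kb, 5, 6, 6 and 7 of the 10 genes had a peak, beside 26.1%, 28.7%, 37.0% and 48.5% of all protein-coding genes. A list of 10 genes chosen with earlier results known cannot be set apart from that background. The member nearest to the limit of 10 kb on its inner side was Nnat at 3598 bp, and on its outer side it was H19 at 42042 bp.

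The 300-base windows around start sites (250 bases before and 50 after, RefSeq, GRCm38.p6) show where peaks and starts coincide. They are given for starts of Gnas, Zdbf2 and Blcap whose window shares bases with a peak, for the lncRNA Airn, whose start lies beside a peak in Igf2r, and for Plagl1, which had no peak. Each reads 5′ to 3′ on the strand of its gene, and capitals mark the bases that lie inside an Arid1b peak. Among these windows, those of Plagl1 and Airn hold no such base. The windows of Gm11608 and of the Gnas start at 174327768 also share bases with a peak and are not printed, since they overlap or adjoin those shown.
Gnas, chr2:174327499-174327798, plus strand: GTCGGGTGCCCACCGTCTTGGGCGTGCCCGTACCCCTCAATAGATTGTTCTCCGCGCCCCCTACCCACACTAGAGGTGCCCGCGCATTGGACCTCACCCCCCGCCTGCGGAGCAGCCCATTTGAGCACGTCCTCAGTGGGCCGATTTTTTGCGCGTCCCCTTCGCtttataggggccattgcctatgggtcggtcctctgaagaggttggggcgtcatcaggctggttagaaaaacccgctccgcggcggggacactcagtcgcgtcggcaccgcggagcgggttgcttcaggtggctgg
Gnas, chr2:174329756-174330055, plus strand: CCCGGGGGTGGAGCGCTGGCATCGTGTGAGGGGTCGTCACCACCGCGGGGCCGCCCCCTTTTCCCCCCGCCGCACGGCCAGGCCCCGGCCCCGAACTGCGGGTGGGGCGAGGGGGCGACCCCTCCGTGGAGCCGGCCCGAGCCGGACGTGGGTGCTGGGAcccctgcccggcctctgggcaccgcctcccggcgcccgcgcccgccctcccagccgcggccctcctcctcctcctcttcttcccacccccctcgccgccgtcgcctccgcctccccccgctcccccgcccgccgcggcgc
Zdbf2, chr1:63273019-63273318, plus strand: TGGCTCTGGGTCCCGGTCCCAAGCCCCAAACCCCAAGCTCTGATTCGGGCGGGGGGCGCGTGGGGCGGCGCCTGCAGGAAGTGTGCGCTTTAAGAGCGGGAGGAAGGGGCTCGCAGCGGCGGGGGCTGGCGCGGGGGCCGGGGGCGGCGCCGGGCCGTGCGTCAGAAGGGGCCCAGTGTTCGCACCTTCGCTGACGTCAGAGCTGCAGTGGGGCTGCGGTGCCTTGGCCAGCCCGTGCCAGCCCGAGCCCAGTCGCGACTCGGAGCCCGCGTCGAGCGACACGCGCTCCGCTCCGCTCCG
Blcap, chr2:157566312-157566611, minus strand: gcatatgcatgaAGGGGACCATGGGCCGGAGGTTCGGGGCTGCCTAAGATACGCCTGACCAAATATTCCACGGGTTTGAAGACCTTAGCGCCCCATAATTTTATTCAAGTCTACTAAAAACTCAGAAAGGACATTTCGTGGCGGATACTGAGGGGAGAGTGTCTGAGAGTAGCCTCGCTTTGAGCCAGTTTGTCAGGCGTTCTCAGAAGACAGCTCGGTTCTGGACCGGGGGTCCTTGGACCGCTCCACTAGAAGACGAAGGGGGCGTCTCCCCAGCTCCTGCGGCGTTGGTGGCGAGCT
Airn, chr17:12741061-12741360, plus strand: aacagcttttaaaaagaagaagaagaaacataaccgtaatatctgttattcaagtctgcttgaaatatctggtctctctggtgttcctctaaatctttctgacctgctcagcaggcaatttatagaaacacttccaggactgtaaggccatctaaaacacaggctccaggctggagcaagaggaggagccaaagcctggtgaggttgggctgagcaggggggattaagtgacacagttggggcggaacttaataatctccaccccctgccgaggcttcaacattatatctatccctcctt
Plagl1, chr10:13090582-13090881, plus strand: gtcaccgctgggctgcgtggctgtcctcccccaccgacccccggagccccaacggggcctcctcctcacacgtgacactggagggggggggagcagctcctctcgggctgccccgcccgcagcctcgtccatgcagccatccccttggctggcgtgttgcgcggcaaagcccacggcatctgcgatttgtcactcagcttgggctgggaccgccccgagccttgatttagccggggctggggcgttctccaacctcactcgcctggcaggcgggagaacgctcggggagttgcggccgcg

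The strength of each peak is the authors' fold enrichment at its summit, with the number of ChIP fragments piled up there and the level expected from input. Both were solved from the deposited fold and p-value of the authors, and the exact Poisson 95% interval of the pileup gives that of the fold. This interval covers counting error alone, and several fragments may stem from the same molecule. The expected level was never below a genome background of 8.68 fragments. The 18 peaks had a median fold of 3.92 and ranged from 2.54 to 8.67, against a median of 3.72 over all 8318 peaks. Their pileups ran from 28 to 87 fragments over expected levels of 8.68 to 13.7. The median of all peaks fell within the interval of 15 of the 18, and within that of 7110 of all 8318 peaks. At this depth, counting error alone covers the distance of those 15 folds from the median. Most listed peaks share this property, so it is not particular to the imprinted genes. A fold of at least 5 was reached by 2 of the 18, both in Zdbf2, beside 10.2% of all peaks.

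**Figure D1:**
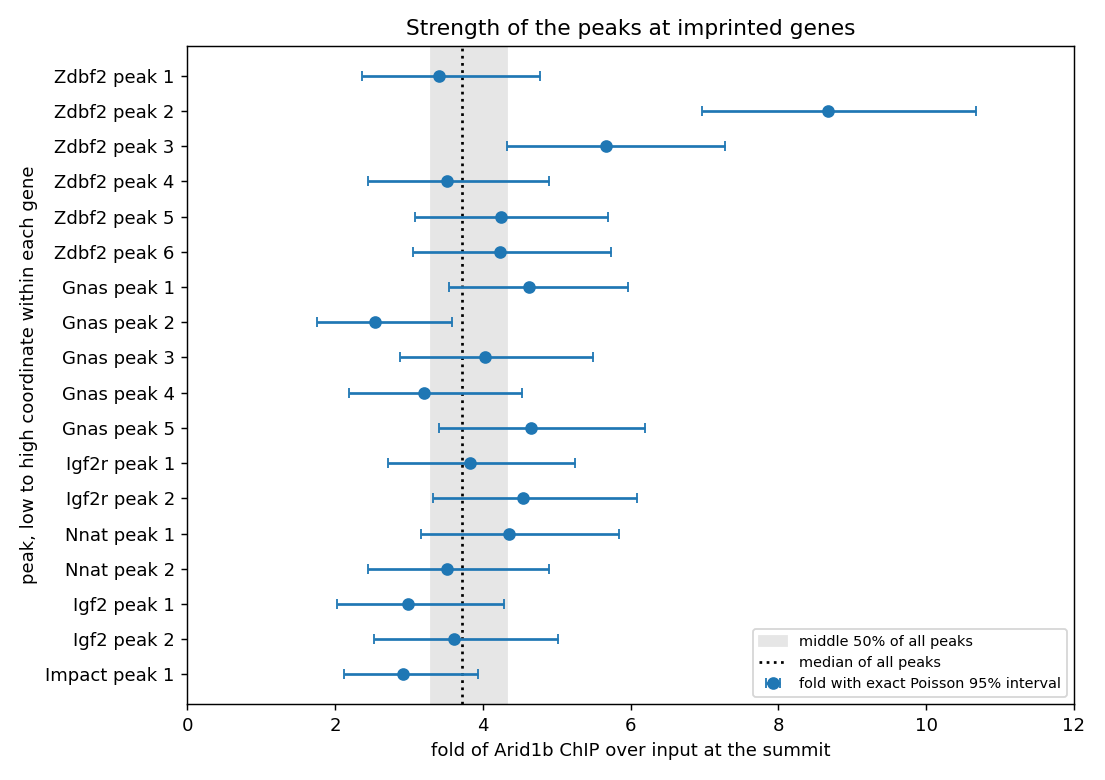
Fold of Arid1b ChIP over input at the summit (horizontal axis) for the 18 peaks (rows), with exact Poisson 95% intervals of the pileup as bars. The dotted line is the median of all 8318 peaks (3.72) and the grey band runs from the lower to the upper quartile (3.30 to 4.32). The second and the third Zdbf2 peaks, at 8.67 and 5.66, are the ones whose intervals lie wholly to the right of the line, and the second Gnas peak, at 2.54, is the one wholly to the left.

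Zdbf2 held the strongest and widest Arid1b signal of the group. It encodes a DBF-type zinc-finger protein and is paternally expressed, and its long transcript, which starts far upstream, is known in mice as the one that sets the imprint of the locus in the early embryo. The gene spans chr1:63200358-63314576 (114219 bp, plus strand) with annotated starts at 63200358 and 63273269. All 6 of its peaks lay inside the gene within a stretch of 30281 bp, and none of them covered the upstream start, which lies inside the neighbouring gene Gpr1. The summit of the first peak lay 46871 bp after that start. Of all protein-coding genes, 0.708% had 6 or more peaks in or within 10 kb.

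The strongest of the 6 was the second, at chr1:63248132-63249455, with a pileup of 87 ChIP fragments over an expected 9.15. Its fold was 8.67 (6.97 to 10.68), which ranked 50 among 8318 peaks, and its width of 1324 bp ranked 209. The summit lay 546 bp inside the low-coordinate end of 1700039I01Rik, an lncRNA gene within Zdbf2 on the opposite strand, and 4636 bp from the start of that lncRNA. It was thus at the annotated end of 1700039I01Rik and not at its start. The peak just before it, at chr1:63247066-63247328, was weak, with 32 fragments over 8.68 and a fold of 3.41 (2.36 to 4.77).

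The third and the fourth peaks lay between the lncRNA genes 1700039I01Rik and Gm11608. The third, at chr1:63259214-63260501, had 59 fragments over 9.60 and a fold of 5.66 (4.33 to 7.27), above that of 94.8% of all peaks. The fourth, at chr1:63261131-63261543, had 33 fragments over 8.68 and a fold of 3.51 (2.45 to 4.89). Their summits lay 13097 and 11832 bp upstream of the Zdbf2 start at 63273269, and 6976 bp or more from any start in the table. They were therefore not start-site peaks by this annotation.

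The fifth peak spanned a shared start. At chr1:63272728-63275103 it was 2376 bp wide, which ranked 50 by width in the list, and it covered the Zdbf2 start at 63273269 and the 3 annotated starts of Gm11608, which runs the other way. Its summit lay 113 bp upstream of that Zdbf2 start and 17 bp from a start of Gm11608. In spite of its width its fold was 4.24 (3.08 to 5.69), from 42 fragments over 9.15. All 300 bases of the Zdbf2 window printed above lie in it. The sixth peak, at chr1:63276876-63277346, lay 3988 bp downstream of the same start with 40 fragments over 8.68 and a fold of 4.23 (3.05 to 5.73). The interval of the second peak did not overlap that of the first, the fourth, the fifth or the sixth, and it overlapped that of the third.

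**Figure D2:**
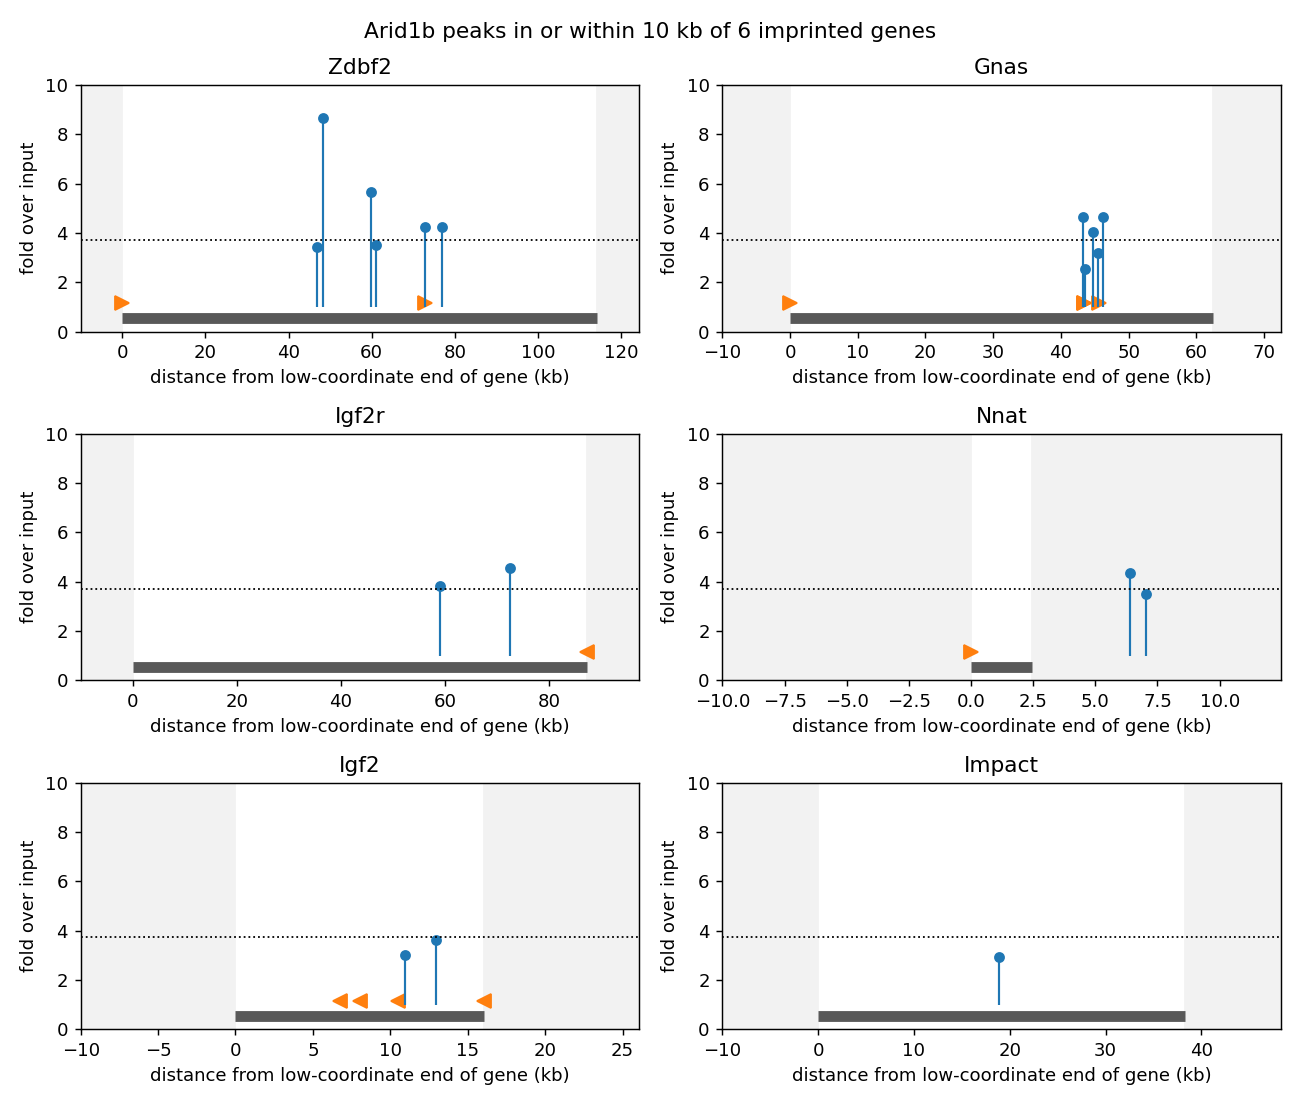
Arid1b peaks at the 6 genes that had one. Each panel shows distance from the low-coordinate end of the gene in kb (horizontal) and fold over input (vertical); blue stems are summits, the dark bar is the gene, grey areas are the 10 kb on either side, orange triangles are annotated starts pointing in the direction of transcription, and the dotted line is the median fold of all peaks, 3.72. No start is drawn for Impact. From edge to edge the Zdbf2 peaks span 30.3 kb and the 5 Gnas peaks 3.31 kb around the internal starts, and the peaks of Nnat lie beyond the gene.

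Gnas carried 5 peaks, all of them around its internal starts. It encodes the stimulatory G protein alpha subunit, which couples receptors to cyclic AMP, and its locus makes several transcripts that differ in first exon and in imprinting. The gene spans chr2:174284320-174346744 (62425 bp, plus strand), with annotated starts at 174284320, 174327749, 174327768 and 174330006. By their order along the locus, the start at 174284320 is that of the transcript known as Nesp, the close pair is that of the exon known as 1A, and the last is that of the G protein subunit itself. These names come from general knowledge of the locus and not from the table used here. The 5 peaks lay within 3315 bp, and the nearest of their summits was 43245 bp from the upstream start. Of all protein-coding genes, 1.24% had 5 or more peaks in or within 10 kb, with peaks counted as listed. The gaps between the Gnas peaks ran from 184 to 770 bp, so merging peaks closer than 500 bp leaves fewer than 5. The share of all genes after such merging was not computed.

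The first peak, at chr2:174327437-174327663, had 58 fragments over an expected 11.7 and a fold of 4.63 (3.54 to 5.97). Its summit lay 184 bp upstream of the start at 174327749, and 165 bases of the window of that start fell inside it, those in capitals above. A boundary of another gene, Gm30189, lay 178 bp from that summit, and Gm30189 had the nearest gene boundary for all 5 peaks. The second peak lay just past the pair of starts, at chr2:174327848-174328073, with 31 fragments over 11.6 and a fold of 2.54 (1.75 to 3.58). It was the weakest of the 18 peaks, and 2.18% of all peaks had a lower fold. The expected level at these 2 peaks was above the genome background of 8.68, and the part of this in their folds was not tested.

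The other 3 led up to and past the start at 174330006. The third, at chr2:174328844-174329117, lay 1021 bp upstream of it with 38 fragments over 8.69 and a fold of 4.03 (2.88 to 5.49). The fourth, at chr2:174329710-174329915, lay 274 bp upstream with 30 fragments over 8.68 and a fold of 3.20 (2.19 to 4.53), and it shared 160 bases with the window of the start. The fifth was the strongest of Gnas, at chr2:174330238-174330751, 560 bp downstream of the start with 44 fragments over 8.68 and a fold of 4.65 (3.40 to 6.20). The first and the fifth had nearly the same fold, and the intervals of 4 of the 5 held the median of all peaks, the exception being the second. The start site at 174330006 was itself outside the peaks, in the gap between the fourth and the fifth.

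Igf2r had 2 peaks, and they lay in the body of the gene beside and downstream of the start of Airn. Igf2r encodes the cation-independent mannose 6-phosphate receptor, and Airn is a paternally expressed lncRNA that starts within Igf2r, runs against it and is known to silence it on the paternal copy. Igf2r spans chr17:12682406-12769706 (87301 bp, minus strand), and Airn spans chr17:12741311-12859884 on the plus strand. The first peak, at chr17:12741448-12741665, began 137 bp past the Airn start, with 36 fragments over 8.68 and a fold of 3.82 (2.71 to 5.25). The second, at chr17:12754926-12755146, lay 13726 bp downstream of the Airn start with 43 fragments over 8.68 and a fold of 4.54 (3.32 to 6.08). The Igf2r start at 12769706 was 14669 bp from the nearer summit, and its window held no base of a peak. The 2 folds had overlapping intervals.

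Nnat had no peak in the gene, and the 2 peaks within 10 kb lay at the start of Blcap. Nnat encodes neuronatin, a small membrane protein of neurons and other cells, and it is a paternally expressed gene inside the larger gene Blcap, which is transcribed the other way. Nnat spans chr2:157560078-157562525 (2448 bp) and Blcap spans chr2:157556362-157566361. The first peak, at chr2:157566123-157566599, covered the Blcap start at 157566361 and lay 3598 bp from Nnat. It had 42 fragments over 8.89 and a fold of 4.35 (3.16 to 5.84), with 288 of 300 bases of the Blcap window inside it. The second, at chr2:157567024-157567230, lay 756 bp upstream of the Blcap start with 33 fragments over 8.68 and a fold of 3.51 (2.45 to 4.89). The summits were 6406 and 7039 bp from the start of Nnat, so by distance both belonged to Blcap rather than Nnat.

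Igf2 had 2 weak peaks upstream of an internal start. It spans chr7:142650768-142666816 (16049 bp, minus strand) with annotated starts at 142666816, 142661271, 142658804 and 142657496. The peak at chr7:142661631-142661859 ended 360 bp short of the start at 142661271 on its upstream side, with 28 fragments over 8.68, the smallest pileup of the 18, and a fold of 2.99 (2.02 to 4.28). The peak at chr7:142663638-142664099 lay 2425 bp upstream of the same start with 34 fragments over 8.68 and a fold of 3.61 (2.53 to 5.01). Neither covered any of the 4 starts, and no base of the 4 windows lay in a peak. Both summits also lay in Igf2os, an lncRNA gene that overlaps Igf2, so the assignment to Igf2 is not unique.

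Impact had 1 weak peak in the middle of the gene. It encodes a paternally expressed protein that restrains activation of the kinase Gcn2, a sensor of amino acid shortage. The peak lay at chr18:12973511-12973891, 18914 bp from the low-coordinate end of the gene at chr18:12954690-12992950. Its fold was 2.92 (2.12 to 3.93), below that of most listed peaks, since 9.25% had a lower one. It rested on 42 fragments, a pileup above the 39.0 of the median member peak, over an expected 13.7, the highest level among the 18. The part of this local input level in the low fold was not tested. A stronger peak just outside the limit, 12893 bp from Impact near the high-coordinate boundary of the neighbouring gene Osbpl1a, had 44 fragments over 8.68 and a fold of 4.65 (3.40 to 6.20).

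Several of these peaks lay at the start of another transcript. Of the 17 peaks on chromosomes with start sites in the promoter table, 9 had the summit within 1 kb of a start, beside 60.6% of all peaks on those chromosomes. The nearest start belonged to the imprinted gene itself for 5 of the 9, namely 4 peaks of Gnas and 1 of Igf2. For the other 4 it belonged to Gm11608, Airn and, for the pair beside Nnat, Blcap.

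The 4 genes without a peak lay in stretches of very different size. Plagl1, at chr10:13090832-13131694, had its nearest peak 221323 bp away on the low-coordinate side, inside Utrn, which encodes the dystrophin relative utrophin. That peak, at chr10:12869259-12869509, had 42 fragments over 8.68 and a fold of 4.44 (3.23 to 5.97). On the other side the nearest peak lay 833191 bp away inside Hivep2, a zinc-finger transcription factor gene, with 32 fragments over 11.4 and a fold of 2.65 (1.84 to 3.71). The stretch between them was 1095375 bp long and held 10 protein-coding genes, among them Stx11, Ltv1, Phactr2, Pex3 and Aig1. Of the 8298 stretches between neighbouring peaks, 6.62% were longer, and their median was 58.3 kb. Of protein-coding genes on chromosomes with a peak, 25.9% were as far from a peak as Plagl1 or farther. No peak lay in Hymai either, the imprinted lncRNA gene that overlaps the start region of Plagl1.

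H19, an lncRNA gene at chr7:142575530-142578146 that is expressed from the maternal copy and shares a control region with Igf2, lay between a peak 42042 bp away and one 83485 bp away. The nearer, with 43 fragments over 8.99 and a fold of 4.40 (3.21 to 5.90), lay 339 bp from the start of Mrpl23, a mitochondrial ribosomal protein gene. The farther was the first Igf2 peak. No peak lay in the 128142 bp between them, so none lay on the stretch between H19 and Igf2.

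Dlk1 and Grb10 were farther from any peak. Dlk1, a paternally expressed gene for a transmembrane protein related to Notch ligands, lies at chr12:109452485-109463336, and its nearest peak was 335764 bp away. That peak, at chr12:109799100-109799349, had 33 fragments over 12.2 and a fold of 2.58 (1.80 to 3.59), and it lay beyond Mirg, the last of the row of imprinted noncoding genes next to Dlk1. On the other side the nearest peak was 557980 bp away inside Wars, the tryptophanyl-tRNA synthetase gene, with a fold of 3.61 (2.53 to 5.01). The stretch of 904594 bp held the protein-coding genes Begain, Dlk1 and Rtl1, and 8.04% of stretches were longer.

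Grb10, which encodes an adaptor that restrains signalling from the insulin and Igf1 receptors, lies at chr11:11930499-12037428 and stood in one of the longest stretches without a peak. The stretch was 5756111 bp long, which ranked 27 among 8298, and held 16 protein-coding genes, among them Ikzf1, Ddc, Cobl, Abca13 and Upp1. The nearest peak was 2382961 bp away, with 30 fragments over 8.68 and a fold of 3.20 (2.19 to 4.53), and lay outside genes. On the other side the nearest peak was 3266222 bp away inside Tns3, 328 bp from its start, with a fold of 3.70 (2.68 to 4.98). Of protein-coding genes on chromosomes with a peak, 2.22% were as far from a peak or farther.

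**Figure D3:**
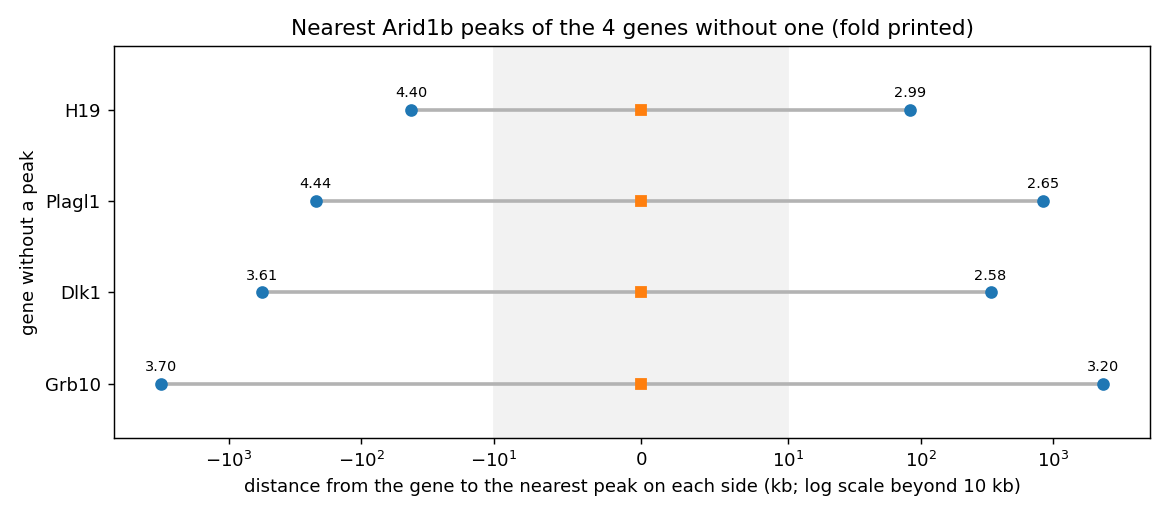
Distance in kb from each of the 4 genes without a peak (orange squares, rows) to the nearest Arid1b peak on the low-coordinate side (left) and the high-coordinate side (right), linear within the shaded 10 kb and logarithmic beyond. The fold of each peak is printed above it. H19 had the nearest peak, 42042 bp away, and the nearest peak to Grb10 lay 2382961 bp away.

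The start of Plagl1 and the upstream start of Grb10 were rich in CG dinucleotides, the sites of DNA methylation. Both lay outside the peaks, as did most windows of such CG content. Of 32851 promoter windows in the RefSeq table, 8.97% had a base in a peak. The share was 0.176% for windows with 0 to 4 CG dinucleotides, and it was higher in each further class up to 32.2% for those with 30 or more. The Plagl1 window printed above held 26 CG dinucleotides, more than 83.1% of all windows, and in its class (25 to 29) 24.8% of windows had a base in a peak. The upstream Grb10 window held 45 and the Igf2r window 34, and neither had a base in a peak. The windows of Gnas at 174330006 and of Zdbf2 at 63273269 held 40 and 38, and both had one. The Dlk1 window and the downstream Grb10 window stood lower, with 9 each, and neither had a base in a peak.

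In all, 4 of 16 windows of the 8 genes in the table had a base in a peak, 3 of Gnas (2 of which overlap each other) and 1 of Zdbf2. Of the 7 windows with 25 or more CG dinucleotides, these 4 had a base in a peak and 3 had none. Over all windows the share with one was 24.8% at 25 to 29 CG dinucleotides and 32.2% at 30 or more. So few windows, 2 of them overlapping, cannot be set apart from those shares. The Blcap window, which lay almost wholly in a peak, held 17 CG dinucleotides, and the Airn window, beside a peak, held 3.

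**Figure D4:**
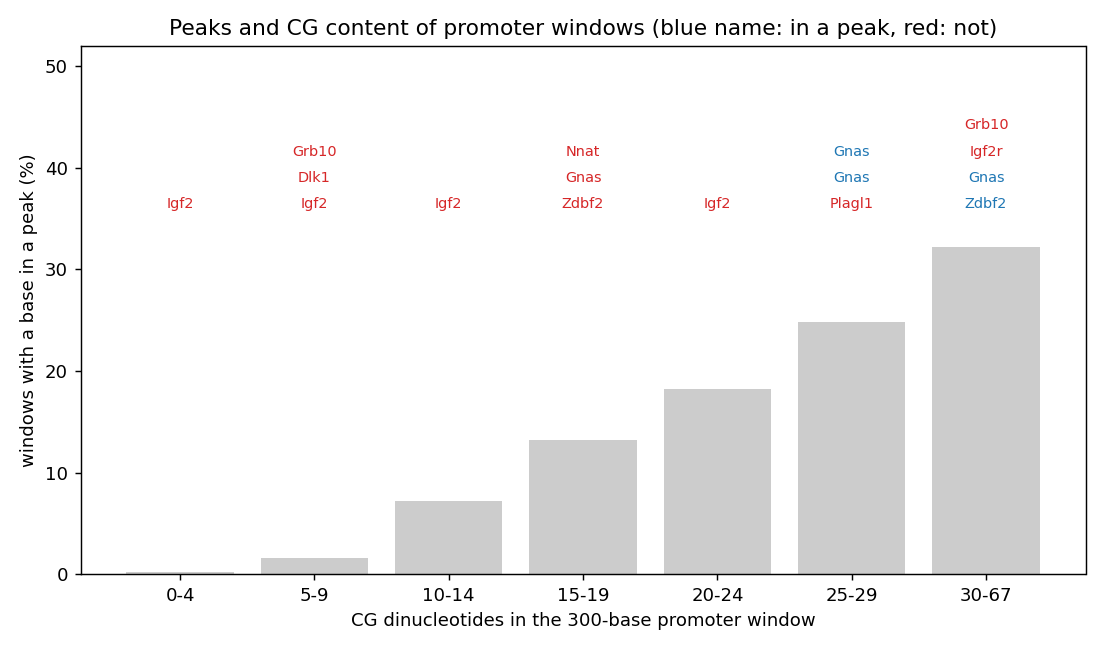
Share of 300-base promoter windows with at least 1 base in an Arid1b peak (vertical axis, %) by their number of CG dinucleotides (horizontal axis, classes). Names above the bars are the windows of the 8 genes, in blue where the window has a base in a peak and in red where it has none. The bars run up from 0.176% to 32.2%, and Plagl1, Igf2r and Grb10 appear in red among the classes with the highest shares.

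The windows were also searched for short motifs on both strands. TGCCGC, the core of the site that ZFP57 binds at methylated imprinted regions, was present in 5 of the 16 windows, namely those of Plagl1, Nnat, 1 of 4 of Igf2, the upstream one of Zdbf2 with 3 copies and the upstream one of Grb10. None of these 5 had a base in a peak. The share with such a base was 8.97% over all promoter windows and at most 32.2% in any CG class. The share among windows with the motif was not computed, and the lack of such a base in 5 windows does not set them apart. Over all promoter windows 11.6% held the motif, at 26.3% of those with a base in a peak and 10.2% of the others. TGANTCA, the site of AP-1 factors, was in 0 of the 16 windows and in 7.81% of all windows. These are matches of letters and not measured sites.

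A wider set of imprinted genes was described in the same way. Of 53 further imprinted genes, 11 (20.8%) had a peak in or within 10 kb. They comprise 10 of 44 protein-coding genes (22.7%, beside 31.7% of all) and 1 of 9 others. The highest were Nap1l4 (6.71, 5.19 to 8.54), a histone chaperone gene, Inpp5f (4.96, 3.67 to 6.56), a phosphoinositide phosphatase gene, and Airn. The next were Blcap, Osbpl5 (4.34), the ubiquitin ligase gene Ube3a (4.13), Copg2 (4.06), Trappc9 (3.33), Tssc4 (3.28) and Asb4 (3.20). Airn and Blcap carry the same peaks as Igf2r and Nnat, and without them 9 of 51 (17.6%) had a peak. No peak lay in or within 10 kb of the cell cycle inhibitor gene Cdkn1c, whose nearest peak was 87330 bp away, nor of Peg3 (568086 bp), Mest (39657 bp), Meg3 (227371 bp), Snrpn (753074 bp) or Kcnq1ot1 (143456 bp).

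Arid1b peaks were present at or beside both relatives of Plagl1 and at the receptor of the Igf2 growth signal. A list of 23 protein-coding genes held relatives of the 10, partners in growth signalling and the Igf2 mRNA-binding proteins. Of these, 14 (60.9%) had a peak in or within 10 kb, beside 31.7% of all. The list was chosen with earlier results known, so it cannot be set apart from that background. The relatives of Plagl1 had a highest fold of 5.68 (4.29 to 7.38) at Plag1 and of 3.54 (2.58 to 4.74) at Plagl2. The Plag1 peak lay 211 bp outside the gene. The Plagl2 peak overlapped the gene, and the listed start nearest to its summit was that of Pofut1, 352 bp away. Igf1r, the receptor through which Igf2 signals growth, had 6 peaks, the strongest at 5.68 (4.29 to 7.38) and 489 bp from a start. The insulin receptor substrates Irs2 and Irs1 had a highest fold of 4.80 (3.64 to 6.22) and 3.61 (2.53 to 5.01). Among genes for Igf2 mRNA-binding proteins, Igf2bp3 reached 12.6 (10.47 to 15.03) and Igf2bp1 6.30 (4.83 to 8.08). The Grb10 relatives Grb7 and Grb14 and the Dlk1 relative Dlk2 had none. Of the 7 genes for Igf-binding proteins, Igfbp6 (3.78, 2.75 to 5.08), Igfbp7 (3.77, 2.75 to 5.05) and Igfbp4 (3.46, 2.52 to 4.65) had a peak, and Igfbp1, Igfbp2, Igfbp3 and Igfbp5 had none. The peak of Igfbp6 lay 8029 bp outside the gene, with its summit 223 bp from the start of Spryd3.

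Of 21 genes for factors that set or keep imprints, 10 (47.6%) had a peak in or within 10 kb, beside 31.7% of all protein-coding genes. The highest were Arid4a (7.85, 6.20 to 9.81), a gene for a retinoblastoma-binding protein, Uhrf1 (4.96, 3.67 to 6.56), which brings Dnmt1 to newly copied DNA, and Zfp445 (4.54, 3.32 to 6.08), a zinc-finger protein gene that acts beside Zfp57. The peaks of Uhrf1 lay outside the gene, the nearest 2245 bp from it. Trim28, whose product binds such zinc-finger proteins, had one of 4.34 (3.25 to 5.68), which lay 216 bp from the start of its neighbour Chmp2a. Ctcf, whose product insulates H19 from Igf2, had one of 3.30 (2.33 to 4.55). Of the DNA methyltransferase family, Dnmt3a had a peak of 3.41 (2.36 to 4.77) inside the gene, and Dnmt1, Dnmt3b and the cofactor gene Dnmt3l had none. Zfp57 had none either. Differences between these lists, and from all protein-coding genes, were not tested, since genes of a list share clusters and peaks. The lists were also chosen with earlier results known.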

How the data were processed

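Arid1b ChIP and input, 1 library each, were compared in 1 deposited narrow peak list without a header. The submitters' processing notes name FastQC 0.11.8, Bowtie2 2.2.5, Picard, MACS2 2.1.1 and mm10. The sources used here give no roles, filters or read numbers, so depth is known only at summits. The authors' deposited list holds, for each peak, its fold over input as a linear ratio, p- and q-values as -log10, a summit offset and a score. The deposited score was not used.

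Pileups and expected input levels were solved from the authors' fold and p-value, assuming fold = (pileup + 1) / (expected + 1) and a Poisson p. Whole pileups solved both within 0.001 in -log10 p for 100% of peaks, and the step was tested on simulated data. Intervals are exact Poisson 95%. Distances run from the gene to the nearest base of a peak, 1-based. Start sites and sequences are RefSeq's (GRCm38.p6), and 8 of the 10 genes matched. Analysis used Python 3.11.15, numpy 2.4.6, pandas 2.3.3, scipy 1.17.1 and matplotlib 3.10.9.

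The genes, lists and motifs were chosen with earlier results of these data known. Named genes were all 10, the genes at their peaks or at the nearest peaks, and up to 10 genes with a peak from each further list. The last were taken mainly by highest fold, and some genes of higher fold than a named one were left unnamed. An item that the rule takes is not reported here. Genes named within stretches, and those named as lacking a peak, were chosen after their values were seen. With 1 library no gene was named for a similar pattern. Alternatives were other windows, stricter peaks, summits, merged peaks and peaks with input at background.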

Additional observations from a re-analysis of the deposited data

How the results depend on the processing

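The 6 genes with a peak and their 18 peaks were recounted under 9 alternatives. With windows of 1, 5, 20 and 50 kb there were 5, 6, 6 and 7 genes, with 16, 18, 19 and 21 peaks. Nnat was lost at 1 kb and H19 gained a peak at 50 kb. A -log10 q of at least 5, the summit in place of any base, and merging of peaks closer than 500 bp each left 6 genes, with 16, 18 and 15 peaks. The merging joined peaks of Gnas and of Nnat. With a fold of at least 5 there were 1 gene, Zdbf2, and 2 peaks, fewer because the filter removes weak peaks. Over peaks whose expected input lay at background there were 5 genes and 10 peaks, the construction removing peaks with higher local input, that of Impact included. The distance of Plagl1 was 4590340 bp with a fold of at least 5 and stayed within 1.5 times its value in the other 4 alternatives tried for distances. That of Dlk1 was 557980 bp with -log10 q of at least 5 or with input at background. In all, 13 of 50 recomputed distances and 11 of 60 recomputed peak numbers of single genes moved by more than 1.5 times, mostly with a fold of at least 5. No paired analysis was possible because there was 1 library per group. Depth limits the folds: a pileup of 28 to 87 leaves intervals that mostly overlap.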
